A study of Mus musculus and Homo sapiens with 12 samples.

Results

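Wide peak regions outside exons that were found in a single replicate of the mESC m5C pull-down are described here. For its own m5C peaks the paper asked that a significant peak be present in every biological sample. Regions of 1 replicate do not meet that requirement, so they are calls of 1 library and not m5C peaks by the paper's definition. Peaks of the 3 mESC m5C-IP libraries that shared 1 bp or more on the same chromosome and strand were joined, which turned 42347 peaks into 35162 regions. Of these, 30355 regions came from 1 replicate, 3096 from 2 and 1711 from 3. A region was kept when it came from 1 replicate, was wider than 150 bp and had its midpoint in no GENCODE exon of either strand. This left 3615 regions, 10.3% of all regions and 11.9% of those of 1 replicate: 801 from replicate 1, 1361 from replicate 2 and 1453 from replicate 3. They are called wide single-replicate regions below. Their counts followed the number of peaks called, which was 11146, 15404 and 15797, so that they took 7.19%, 8.84% and 9.20% of the peaks of each replicate.

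The study profiled 5-methylcytosine (m5C) in chromatin-associated RNA (caRNA) by pulling down RNA fragments with an m5C antibody. Wild-type mouse embryonic stem cells (mESC), grown with LIF, CHIR99021 and PD0325901 and passaged on gelatin to remove feeder cells, and wild-type K562 cells, an established human leukaemia line kept in puromycin according to the labels, each gave 3 m5C-IP and 3 Input libraries. Input libraries hold the same kind of RNA without pull-down, and the labels name no mutation or further treatment in any group. The labels do not say whether replicates came from separate cultures, so p-values measure only the spread between these libraries.

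m5C is a cytosine with a methyl group added by enzymes of the NSUN family or by TRDMT1, and TET enzymes can oxidize it. caRNA is the RNA left in the chromatin fraction of a cell. It holds nascent and intronic transcripts, nuclear long non-coding RNAs and transcripts of repeats, and repeat families such as LINE elements are known to be transcribed in mESC.

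Gene counts per library ranged from 29007088 to 34752646 in mESC Input and from 473398 to 592324 in mESC IP. In K562 they ranged from 10477119 to 11865285 and from 93110 to 111286. The mESC markers summed to between 2521 and 2557 CPM (gene counts scaled so that each library sums to 1000000) in Input, against 68.0 to 70.7 for 10 feeder fibroblast markers and 60.7 to 68.5 for 12 markers of differentiated cells, and 11 of the 12 mESC markers reached 1 CPM. In IP the 3 lists summed to 1268 to 1490, 120 to 150 and 248 to 292 CPM, and the part of other cells in the peaks was not tested. In such bulk libraries fewer cells of a type and less RNA per cell cannot be told apart. The peak lists give no usable height or score, so a region is described by its place, width and sequence.

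A few wide single-replicate regions show the range of sequences in the set. The first 3 are the widest of each replicate, the fourth had the highest share of C in replicate 1, and the last 2 lay nearest to a region of 3 replicates without touching it. Sequences come from the mm10 (GRCm38) reference and read 5′ to 3′ on the strand recorded for the peak, and for regions over 300 bp the central 300 bases are given. Capitals mark exact tandem stretches, that is, runs of at least 12 bases that repeat the bases before or after them at the period given.
chr3:5435730-5436029, plus strand, replicate 1: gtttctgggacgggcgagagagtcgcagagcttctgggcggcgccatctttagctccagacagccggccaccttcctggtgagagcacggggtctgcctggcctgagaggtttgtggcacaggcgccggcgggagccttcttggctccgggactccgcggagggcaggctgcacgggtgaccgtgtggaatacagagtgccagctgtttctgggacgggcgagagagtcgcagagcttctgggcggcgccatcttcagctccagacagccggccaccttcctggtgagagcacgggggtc
chr1:44491249-44491548, minus strand, replicate 2: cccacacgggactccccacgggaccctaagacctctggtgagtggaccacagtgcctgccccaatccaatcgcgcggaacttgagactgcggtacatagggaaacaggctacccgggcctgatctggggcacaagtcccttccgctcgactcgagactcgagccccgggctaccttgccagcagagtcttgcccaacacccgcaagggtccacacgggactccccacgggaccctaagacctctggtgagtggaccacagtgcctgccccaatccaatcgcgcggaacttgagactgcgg
chr6:100467152-100467451, plus strand, replicate 3, period 17: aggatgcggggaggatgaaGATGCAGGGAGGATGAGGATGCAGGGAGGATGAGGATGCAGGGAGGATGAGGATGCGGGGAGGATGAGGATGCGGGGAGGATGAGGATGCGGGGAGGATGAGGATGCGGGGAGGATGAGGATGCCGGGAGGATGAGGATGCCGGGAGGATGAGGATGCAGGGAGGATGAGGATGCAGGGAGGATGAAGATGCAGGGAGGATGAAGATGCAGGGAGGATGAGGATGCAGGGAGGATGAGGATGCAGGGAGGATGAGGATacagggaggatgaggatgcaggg
chr17:57155818-57156086, minus strand, replicate 1, period 28: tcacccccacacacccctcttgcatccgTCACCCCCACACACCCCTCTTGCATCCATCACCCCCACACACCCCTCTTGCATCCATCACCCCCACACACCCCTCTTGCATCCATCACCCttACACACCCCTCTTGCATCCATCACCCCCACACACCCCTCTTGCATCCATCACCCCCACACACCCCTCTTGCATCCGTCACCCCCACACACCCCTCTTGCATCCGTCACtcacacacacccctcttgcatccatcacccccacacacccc
chr7:123022066-123022250, plus strand, replicate 1, period 9: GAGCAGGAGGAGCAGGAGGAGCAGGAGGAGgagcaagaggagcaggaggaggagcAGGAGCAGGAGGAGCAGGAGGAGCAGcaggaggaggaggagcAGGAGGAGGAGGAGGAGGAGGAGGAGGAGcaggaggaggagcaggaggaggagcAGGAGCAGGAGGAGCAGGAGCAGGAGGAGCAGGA
chr6:97010282-97010581, minus strand, replicate 2, period 10: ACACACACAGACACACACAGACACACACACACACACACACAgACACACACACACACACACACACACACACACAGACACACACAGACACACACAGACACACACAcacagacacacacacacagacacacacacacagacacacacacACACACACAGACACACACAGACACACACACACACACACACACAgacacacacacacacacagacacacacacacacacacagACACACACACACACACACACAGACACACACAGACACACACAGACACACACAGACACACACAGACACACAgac

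The region on chromosome 3 spanned 972 bp (chr3:5435394-5436365), the widest of all 3615, and lay outside genes, 20.02 kb from Zfhx4. The region on chromosome 1 spanned 655 bp, also outside genes. Neither held a tandem stretch at a period of up to 60 bases, the longest searched. Longer units were not searched, and in both printed sequences a stretch from near the start recurred toward the end. Both were repeats: the 32 bases at their centres occurred 1389 and 2828 times in the genome. Of their bases, 98.7% and 100% were soft-masked, meaning written in lower case in the reference because they belong to a known repeat. The region of 584 bp on chromosome 6 (chr6:100467010-100467593) differed from both. Its centre occurred once, and a unit of 17 bases ran through it with 53.6% G and 5.7% C. The region on chromosome 17 held 56.5% C and repeated a unit of 28 bases. The regions on chromosome 7 and in an intron of Fam19a4 were low-complexity runs, with 90.3% A or G in the first and 50.0% A and 43.1% C in the second, 18 and 21 bp from a region of 3 replicates.

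The other regions were chosen by the same rule, and their bases are counted on the recorded strand. Regions in Fgf13 (chrX:59284272-59284837, 566 bp) and opposite to Fbxl17 (chr17:63247488-63248045, 558 bp) had centres in 2266 and 1342 copies and held 36.6% and 38.0% G. The region opposite to Cdk18, a cyclin-dependent kinase gene, was 610 bp of 89.8% A or G with a period of 12 bases. A region with no soft-masked base lay in an intron of St6galnac3, a sialyltransferase gene, spanned 558 bp and held 59.9% G and 3.4% C. A region of 566 bp outside genes (chr15:94088873-94089438, plus strand, replicate 2) held no C and 47.2% G with a period of 42 bases, and a region of 534 bp (chr2:169617944-169618477, minus strand, replicate 3), 5.845 kb from Gm34294, held 44.6% G with a period of 18 bases. The highest share of C in replicate 2, and in all regions, was 64.1% in a region of 237 bp that lay 1.44 kb from Slc45a1 (chr4:150653497-150653733, minus strand) and had a period of 57 bases. In replicate 3 it was 57.6%, in 205 bp of an intron of the septin gene Sept8 (chr11:53538730-53538934, plus strand). Regions at the low end held no C at all on the recorded strand, where each G stands for a C of the other strand. In replicate 2 this was a region of 272 bp on chromosome Y with 65.4% A and 33.5% G, and in replicate 3 a region of 235 bp in an intron of the forkhead gene Foxp4.

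The width threshold fell at the length of 1 extended fragment. The authors extended fragments to 150 bp, no peak was narrower, and 23023 non-exonic regions of 1 replicate measured exactly 150 bp, the regions just outside the rule. Just inside it, 453 wide single-replicate regions measured 151 bp and 1736, or 48.0%, measured 151 to 155 bp. The median was 156 bp in each replicate. A further 349 measured 156 to 160 bp, 642 measured 161 to 200 bp, 640 measured 201 to 300 bp and 248 were wider. All but 6 of the 3615 held 1 peak. Wide peaks made up 34.2% of the non-exonic peaks in regions of 2 replicates and 68.9% of those in regions of 3.

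The other classes of non-exonic peaks serve for comparison. They are the single-replicate regions of 150 bp, and the wide peaks of each replicate in regions of exactly 2 or of 3 replicates. Each feature was computed once per replicate in each class, and the means over 3 replicates were compared by an exact two-sided permutation test. With 3 values against 3 this test cannot give p below 0.1 and so cannot pass 0.05. Of 43 such comparisons, with p-values adjusted over all 43 (Benjamini-Hochberg), the smallest adjusted p was 0.119. In 36 of them the 3 values of the wide single-replicate regions all lay above or all below the other 3, and these are the comparisons called apart below. All classes came from the same 3 libraries, and the test treated the values as independent and ignored this pairing. In regions of 2 or of 3 replicates the same loci also enter the values of several replicates. The spread of those values is thus not that of independent samples. The p-values and the term apart describe these values only.

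By gene context the wide single-replicate regions resembled the 150-bp ones and stood apart from shared peaks. They lay outside genes in 52.8%, 51.7% and 53.2% of cases in replicates 1, 2 and 3, against 49.5%, 51.9% and 50.5% for regions of 150 bp (p = 0.2, exact permutation test) and means of 63.1% and 68.6% for wide peaks of 2 and of 3 replicates (each p = 0.1, exact permutation test). Of the non-exonic bases of the genome, 56.7% lay outside genes. Introns of a gene on the recorded strand held 20.2% ± 0.63 (SD, n = 3), against 19.1%, 15.9% and 14.2% in the 3 other classes. Introns of a gene on the other strand held 24.8% ± 1.35, against 27.9%, 18.1% and 15.1%. For these introns the comparison of the recorded strand with regions of 150 bp overlapped, and the others were apart. Among all 4307 exonic regions, 60.7% lay opposite to the gene and 36.4% on its strand, so the recorded strand may not be the strand of the RNA, and for gene context and host genes both are given. Base contents are given on the recorded strand only. On the other strand C and G change places, as do A and T.

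**Figure D1:**
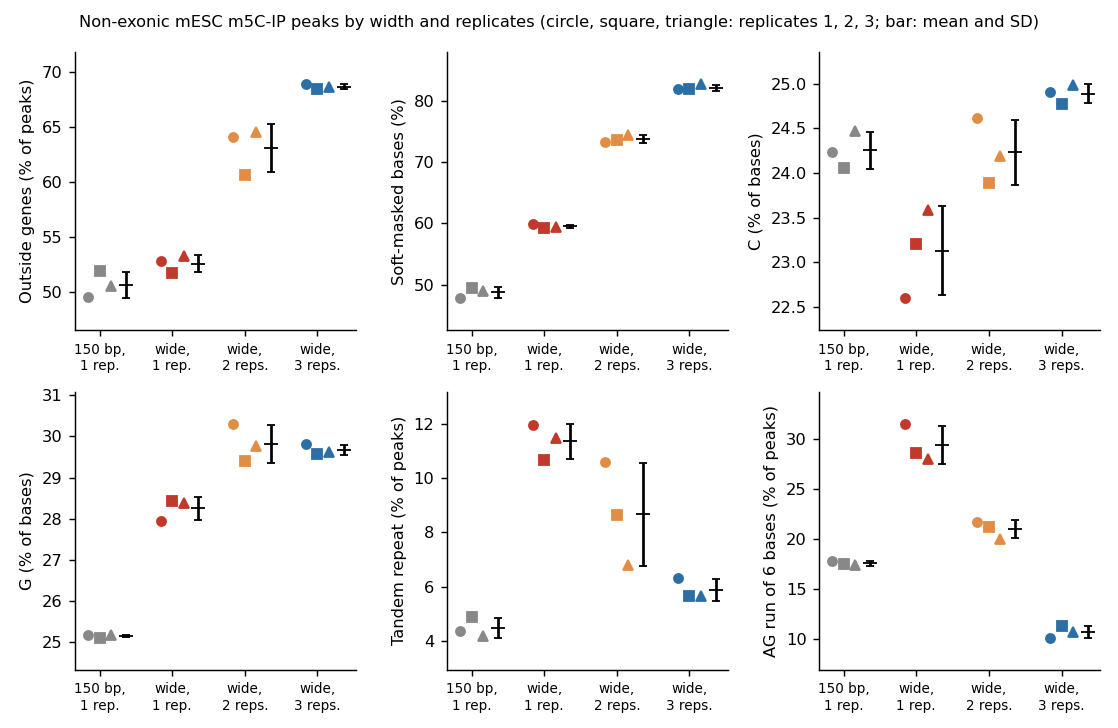
Each point is the value of 1 mESC m5C-IP replicate in 1 of the 4 classes of non-exonic peaks, as a percentage of peaks or of bases, and the bar gives the mean and SD of 3. The panels show the share outside genes, soft-masked bases, C, G, tandem repeats and runs of 6 alternating A and G. The wide single-replicate regions sit near the 150-bp regions for the share outside genes (means of 52.6% and 50.6%) and above all other classes for tandem repeats (11.3%).

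Within genes, 32.6% of the intronic wide single-replicate regions lay within 1 kb of an exon, and the median distance to the nearest exon was 2.29 kb. For regions of 150 bp the values were 35.6% and 2.102 kb. Outside genes, 24.9% lay within 5 kb of a gene and 18.5% over 50 kb away, with a median of 14.1 kb. Wide peaks of 3 replicates lay farther out, with 15.2% within 5 kb and a median of 20.4 kb.

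The regions held less C on the recorded strand than each of the other classes, and more G than the regions of 150 bp. C made up 22.6%, 23.2% and 23.6% of bases in replicates 1, 2 and 3, against 24.2%, 24.1% and 24.5% in regions of 150 bp. G was higher, at 27.9%, 28.4% and 28.4% against 25.2%, 25.1% and 25.2%. Both differences were apart, as were those from shared wide peaks, which held more of both bases (C at 24.2% and 24.9%, G at 29.8% and 29.7%). In windows of the same width 1 kb to each side C was 22.2% and G 22.3%, so that the regions exceeded their surroundings in G and only slightly in C. The spread among the regions was wide: C ran from 0% to 64.1% with a median of 24.3%, and G from 0% to 64.5% with a median of 27.8%.

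By width, C was lowest at 156 to 160 bp (20.4%) and G was highest above 300 bp (31.9%). Under 5% C was found in 4.66% ± 0.65 (SD, n = 3) of wide single-replicate regions in 2.63% ± 0.40 of the 150-bp ones and in 5.03% ± 0.52 and 2.69% ± 0.27 of wide peaks of 2 and of 3 replicates. Of the wide single-replicate regions, 47 held no C on the recorded strand. The dinucleotide CpG, a site of DNA methylation, occurred 2.02, 2.48 and 2.56 times per 100 bases, overlapping the mean of 2.06 in regions of 150 bp (p = 0.3, exact permutation test) and below the 4.06 of wide peaks of 3 replicates.

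Purines were more frequent than in the regions of 150 bp. A and G together made up 56.7% ± 0.46 of bases on the recorded strand, against 52.7% in regions of 150 bp and 54.2% in wide peaks of 3 replicates, both apart. Wide peaks of 2 replicates, at 56.3% ± 0.26, overlapped (p = 0.3, exact permutation test). At least 70% A or G was found in 13.3% of wide single-replicate regions and at most 30% in 1.17%. In regions of 150 bp these shares were 6.68% and 2.34%. At 90% the imbalance was 103 regions against 3, or 2.86% purine-rich, while wide peaks of 2 replicates had 3.62%.

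Soft-masked bases made up 59.8%, 59.3% and 59.4% of the regions in replicates 1, 2 and 3. The mean was 48.7% in regions of 150 bp, 73.8% in wide peaks of 2 replicates and 82.2% in those of 3, all apart, and the genome stood at 36.4%. Windows 1 kb to the 5′ and 3′ side held 39.4% and 38.1%, so the excess was local. Single regions took both extremes: 29.6% were masked throughout and 12.8% had no masked base, against 24.5% and 22.6% of the regions of 150 bp.

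Tandem repeats, in which a short unit follows itself, were more frequent in wide single-replicate regions than in any of the other classes, though by a narrow margin over wide peaks of 2 replicates. A region was counted when at least 80% of positions in its central 150 bp matched the base 1 period away, for some period of 1 to 60 bases. Longer units were not counted in any class, so the ranking holds for short units only. This held for 11.9%, 10.7% and 11.5% of the regions in replicates 1, 2 and 3, or 405 of the 3596 with a sequence on a chromosome. The shares were 4.36%, 4.89% and 4.20% in regions of 150 bp, 10.6%, 8.63% and 6.80% in wide peaks of 2 replicates, and a mean of 5.88% in those of 3, all apart. In the windows to each side the shares were 0.971% and 0.533%. The commonest periods were 2 bases (40 regions), 6 bases (34) and 4 bases (22).

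The share of tandem repeats was higher in each wider bin. It was 4.16% at 151 to 155 bp, close to that of regions of 150 bp, then 8.62% at 156 to 160 bp, 16.3% at 161 to 200 bp, 21.4% at 201 to 300 bp and 25.7% above. Replicates spread widely in the last bin, which held 245 regions. The tandem regions carried much of the base imbalance, with 35.1% G and 19.1% C against 27.4% G and 23.7% C in the other wide single-replicate regions. In the latter, too, C was below G.

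Runs of alternating A and G followed another course. A run of 8 such bases on the recorded strand (AGAGAGAG or GAGAGAGA in the central 150 bp) stood in 19.7% of wide single-replicate regions and 7.97% of regions of 150 bp. It was commonest just above the threshold, with 23.4% at 151 to 155 bp and 31.03% at 156 to 160 bp, and stood at 6.12% above 300 bp. The same run of C and T, which is the A and G run of the other strand, went the other way, at 2.81% against 4.28%. Runs of A and C stood in 18.1% against 10.2%, and of G and T in 11.8% against 7.46%.

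**Figure D2:**
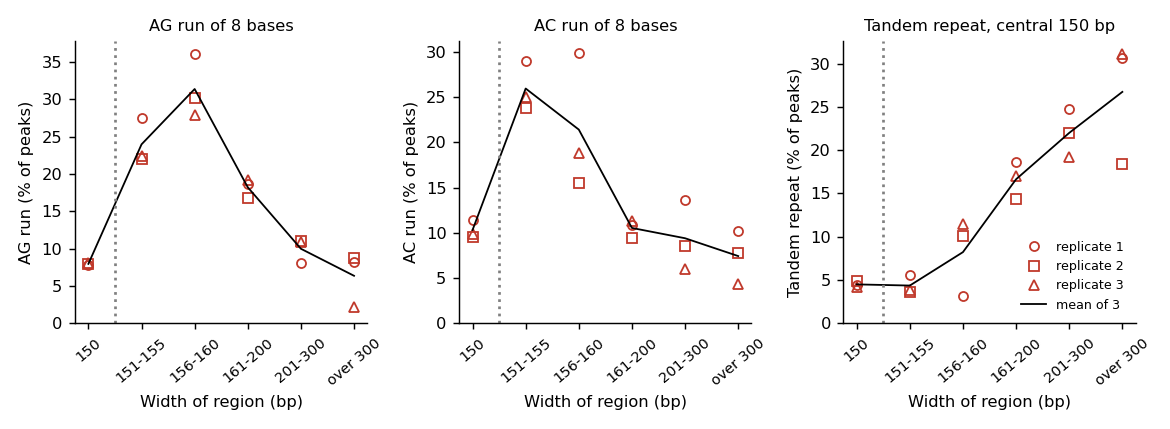
The x axis bins regions of 1 replicate by width in bp, and the y axes give the percentage of regions with a run of alternating A and G, a run of alternating A and C, or a tandem repeat, with 1 point per replicate, a line for the mean of 3 and a dotted line at the threshold of the rule. Tandem repeats over all replicates go from 4.16% at 151 to 155 bp to 25.7% above 300 bp, while runs of alternating A and G over all replicates peak at 31.03% at 156 to 160 bp.

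Short motifs were no more frequent than in the regions of 150 bp. CTCCA, the sequence known to be methylated by NSUN6, stood on the recorded strand in 14.1% of wide single-replicate regions, 19.1% of regions of 150 bp and 12.96% of wide peaks of 3 replicates, and on the other strand in 17.0%, 18.5% and 9.87%. CNGGG stood in 44.7%, 48.3% and 65.9%, and GGGG in 36.5%, 36.5% and 56.3%. The motifs were searched by their letters in the central 150 bp and they overlap one another, so a match is no methylated site.

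The composition changed along the region. In bins of 25 bp around the midpoint, A and G together reached 66.3% ± 1.80 (SD, n = 3) at 75 to 100 bp to the 3′ side, which is at or past the end of most regions. The same bin held 62.7% in regions of 150 bp and 57.7% in wide peaks of 3 replicates. Soft-masked bases reached 74.2% ± 2.31 at 50 to 75 bp to the 3′ side, against 59.7% in the first bin past the midpoint, while in regions of 150 bp the same bins held 51.4% and 48.4%. Purines and repeats in the wide single-replicate regions were thus gathered toward the recorded 3′ end.

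**Figure D3:**
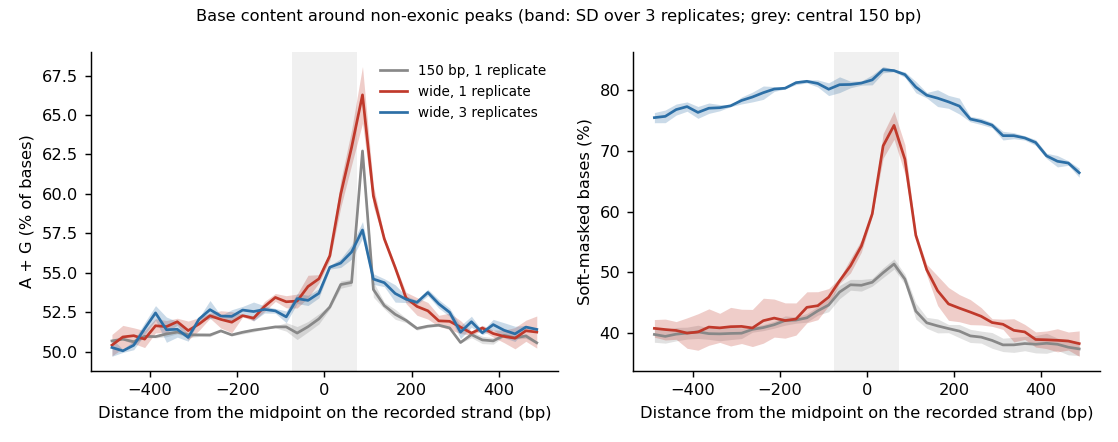
The x axis is the distance in bp from the midpoint of the region on the recorded strand, in bins of 25 bp, and the y axis is the mean percentage of bases over 3 replicates, with a band for the SD. The left panel gives A and G together and the right panel soft-masked bases. A and G together are highest at 75 to 100 bp in the wide single-replicate regions (66.3%), and the same bin holds 57.7% in wide peaks of 3 replicates.

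The bases just past the recorded 3′ end followed a pattern. The first base past the end was A in 55.2% of wide single-replicate regions, the second G in 53.6% ± 1.96 and the third A in 46.4%. AGA followed the end directly in 27.1%, 27.4% and 26.3% of regions in replicates 1, 2 and 3, against a mean of 34.6% in regions of 150 bp and 26.9% in wide peaks of 3 replicates. Placed 100 bp further on, AGA stood in 3.51%. As background, AGATCGGA are the first letters of the adapter that Illumina libraries carry at the 3′ end of an insert. At least 6 of these 8 letters matched in 300 wide single-replicate regions, 8.34%, and in 16.1% of regions of 150 bp. Wide peaks of 2 and of 3 replicates matched in 15.3% and 14.8%. Placed 100 bp further on, the match stood in 0.445% of wide single-replicate regions. All 8 matched in 6 regions. A region of each replicate with 7 or 8 matches is shown by its last 20 bases in lower case and the 20 genomic bases that follow, of which the first 8 are in capitals.
chr4:106505375-106505414, plus strand, replicate 1: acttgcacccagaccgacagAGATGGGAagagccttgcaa
chr3:102170590-102170629, minus strand, replicate 2: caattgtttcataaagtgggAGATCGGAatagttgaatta
chr3:93493527-93493566, plus strand, replicate 3: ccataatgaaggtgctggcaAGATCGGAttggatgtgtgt
The first region lay opposite to Tmem61, the second in an intron of Vangl1 and the third outside genes. The part of this sequence in the calling of the peaks was not tested.

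The 32 bases at the centre occurred once in the genome for 56.5%, 51.9% and 51.9% of wide single-replicate regions in replicates 1, 2 and 3, against means of 61.1%, 26.1% and 11.8% in the 3 other classes. Over 100 copies were found for 21.1%, against 18.6%, 39.1% and 47.8%. The wider regions were more often multicopy. The single-copy share at the centre was 65.4% at 151 to 160 bp, 43.7% at 161 to 200 bp, 32.1% at 201 to 300 bp and 24.9% above. A run of 25 bases that was not a simple repeat was shared with some region of 3 replicates by 21.1%, 28.8% and 29.5% of the regions, against 18.99%, 21.4% and 22.0% of those of 150 bp, which overlapped (p = 0.3, exact permutation test), and 60.8% of wide peaks of 2 replicates. Reads of such copies can be placed at more than 1 locus.

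The regions lay slightly closer to shared regions than the 150-bp ones did at 1 and 10 kb. Within 10 kb of a region of 3 replicates on the same strand lay 3.00%, 4.04% and 4.41% of the wide single-replicate regions in replicates 1, 2 and 3, or 143 in all, against 2.261%, 2.86% and 2.52% of those of 150 bp. Within 1 kb lay 1.62%, 1.76% and 1.65%, or 61, against 1.01%, 0.895% and 0.756%. Both were apart. The median distance was 1385, 1316 and 1307 kb against 1394, 1303 and 1351 kb (p = 0.8, exact permutation test). Over all regions it was 1326 kb, and with strand ignored in merging 684 kb. Within 10 kb of a region of 2 or 3 replicates lay 7.37%, 9.85% and 10.2%, against 6.46%, 6.60% and 6.21%. Within 100 kb of one lay 22.97%, 26.5% and 25.9% against 22.5%, 22.95% and 22.8%.

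**Figure D4:**
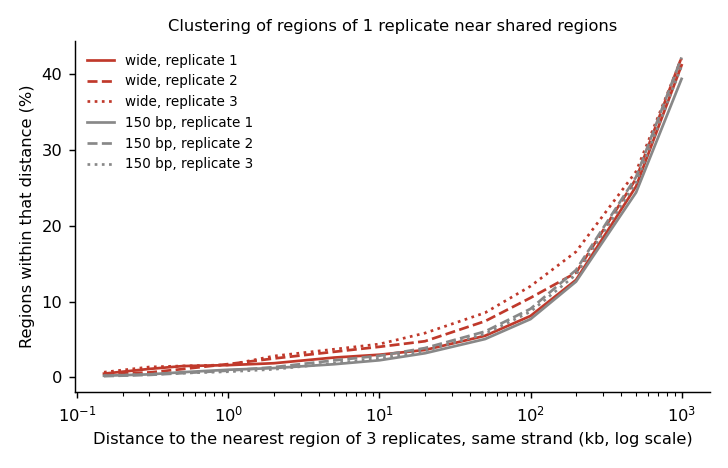
The x axis is a distance in kb on a log scale and the y axis the cumulative percentage of regions with a region of 3 replicates within that distance on the same strand, with 1 line per replicate and class. The wide single-replicate regions run above the 150-bp regions at 1 kb and 10 kb (means of 1.68% against 0.888%, and 3.81% against 2.55%).

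The 143 regions within 10 kb of a region of 3 replicates often shared sequence with one. Of the 132 with a sequence, 105, or 79.5%, shared a run of 25 bases with a region of 3 replicates, against 25.4% of the regions farther away. They lay outside genes in 105 of 143 cases, and 67.5% of their bases were soft-masked against 59.1%. In 1-Mb windows that held 50 or more merged regions lay 48 of the 143. Without those windows the shares within 10 kb were 1.98%, 3.12% and 3.08%, against 1.33%, 1.83% and 1.68% for regions of 150 bp. The nearest of replicate 3 lay on chromosome 18, 14 bp from a region of 3 replicates and 70.9 kb from Dok6.

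Peaks of other replicates on the opposite strand were also more frequent than in the regions of 150 bp. A peak of another replicate overlapped on the other strand in 5.24%, 5.00% and 5.09% of wide single-replicate regions in replicates 1, 2 and 3, against 2.50%, 2.14% and 2.06% of those of 150 bp, which was apart. On the same strand a peak of another replicate lay within 150 bp in 104 regions, and within 1 kb in 6.87%, 8.67% and 10.5% against 6.88%, 5.65% and 5.14%. In wide peaks of 2 and of 3 replicates the overlap on the other strand was higher, with means of 14.8% and 37.2%. A wider region also covers more bases, and the part of width was not tested.

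Along the genome the regions were spread over 1746 windows of 1 Mb, of which 824 held 1 region. The 107 windows with 5 or more held 721 regions, 19.9% of all. The fullest were chr1:85000001-86000000 and chr5:140000001-141000000 with 18 each, chr5:139000001-140000000 and chr5:142000001-143000000 with 17 each, and chr9:62000001-63000000 with 14. In this order they made up 10.5%, 12.7%, 12.4%, 14.8% and 28.6% of the merged regions of the window, against 10.3% over the genome. The window on chromosome 1 also held 14 regions of 3 replicates among its 171 merged regions, and no tandem region. Per Mb, chromosome 5 held 2.101 regions and chromosome Y 0.272. All merged regions stood there at 19.8 and 2.50 per Mb, so that the wide single-replicate ones were 10.6% and 10.9% of them, against 10.3% over the genome.

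Introns of 761 genes held a wide single-replicate region on the recorded strand, 625 of them protein-coding, 126 long non-coding and 10 pseudogenes, and 705 held just 1. Introns on the other strand involved 917 genes. The protein-coding hosts on the recorded strand were long, with a median of 108 kb against 17.3 kb for all protein-coding genes. On the other strand the median was 87.8 kb over 777 protein-coding genes. A gene became a host by holding a midpoint in an intron, so longer genes had more room for one. The part of this in the medians was not tested. The Input level of hosts on the recorded strand was higher than that of all genes per kb of exon. The median over hosts was 1.86 ± 0.04 CPM per kb (SD, n = 3) against 0.386 over all genes of any biotype with an Input count. Per kb of the whole gene it was 0.0913 against 0.0945. For genes that were hosts on the other strand only it was 2.68 ± 0.08 per kb of exon and 0.206 per kb of the gene.

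In mESC the host genes were mostly higher in the pull-down, with log2 IP/Input fitted by edgeR's quasi-likelihood test. Of 711 tested, 464 were higher at an adjusted p under 0.05 (65.3%, against 39.9% of all 20244 genes tested) and 164 were lower (23.1%, against 42%). The median log2 IP/Input was 1.97 over hosts and -0.17 over all genes. Of 847 genes tested that were hosts on the other strand, 443 were higher (52.3%) and 290 lower (34.2%), with a median of 0.72. With library size alone as the scale, the counts for the recorded strand were 563 higher and 62 lower, and the medians 2.97 and 0.83. The regions were called in these IP libraries, so the mESC values are a description and no evidence about the regions.

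In K562, whose libraries had no part in choosing the regions, 554 genes of the same symbol were found and 408 could be tested. Of these, 123 were higher in IP (30.1%, against 15.1% of all 14522 genes tested) and 128 were lower (31.4%, against 16.4%). With library size alone the counts were 136 and 73. Of 538 genes tested that were hosts on the other strand, 132 were higher (24.5%) and 143 lower (26.6%), with a median of -0.15. On either strand the share of hosts past the test was above that of all genes in both directions. For the recorded strand the median log2 IP/Input was -0.10 against -0.16 over all genes. The part of gene length and level in this share was not tested. Among the K562 Input libraries, replicate 1 differed from replicates 2 and 3 by no more than counting noise (chi-square per degree of freedom of 0.912 and 0.918). Replicates 2 and 3 were only slightly past it (1.03, p = 0.0044, chi-square test), while the mESC Input pairs stood at 2.03 to 2.37. With K562 Input replicates 1 and 2, or 1 and 3, counted as 1 sample, an alternative chosen after seeing the data, 122 genes were higher and 126 lower. Counting all 3 as 1 sample was not tried, and whether they are independent was not settled.

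The 10 genes with most regions on the recorded strand ranged from multicopy loci to long single-copy genes. C130026I21Rik, in the fullest window on chromosome 1, held 6. Its level was 150, 240 and 203 CPM in IP replicates 1, 2 and 3 and 0.862, 1.54 and 1.38 CPM in Input, with no overlap and a log2 IP/Input of 6.30 ± 0.26 (SE). Gm26870, a long non-coding RNA gene at the start of chromosome 9, held 4. It stood at 2507, 3127 and 2480 CPM in IP and 1.69, 1.33 and 1.41 CPM in Input, and the fit gave 9.87 ± 0.12 (SE). All 8 of its regions on either strand shared a run of 25 bases with a region of 3 replicates and none had a single-copy centre, so its reads may come from other copies. The pseudogene Gm2619 held 3 and had a log2 IP/Input of 9.13 ± 0.42, with 97, 77 and 61 counts in IP and 5, 4 and 3 in Input. Its span (chr1:85156809-85327306) overlapped that of C130026I21Rik (chr1:84992690-85270566) on the same strand, so a region can count for both.

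Hs6st3, which encodes a heparan sulfate sulfotransferase, went the other way in mESC. It held 4 regions in a gene of 731 kb, and 4 of its 5 regions on either strand came from replicate 2. Its level was 558, 592 and 701 CPM in IP and 637, 646 and 647 CPM in Input, so that the libraries overlapped on the CPM scale, while the fit with TMM scaling gave a log2 IP/Input of -1.03 ± 0.07 (SE). In K562, where HS6ST3 had 5, 3 and 1 counts in IP and 8, 14 and 9 in Input, the log2 IP/Input was 4.74 ± 0.74 (SE). Those IP counts are few.

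The other genes of the 10 were higher in IP in mESC. Tmem267 (4 regions) had a log2 IP/Input of 4.05 and Megf11 (4 regions), which encodes a membrane protein with EGF-like repeats, 1.46. C230088H06Rik, Gm26848 and Gm20388, with 3 regions each, stood at 3.82, 2.58 and 2.21. Gm20388 is annotated over 4435 kb, and its reads cannot be told apart from those of the genes within it. Snx29, a sorting nexin gene with 3 regions, stood at 1.67, and 3 of its 5 regions on either strand were tandem repeats. In K562, SNX29 was at -0.36 ± 0.13 (SE, adjusted p = 0.0189, edgeR) and TMEM267 at -0.48 ± 0.25 (SE, adjusted p = 0.148, edgeR).

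**Figure D5:**
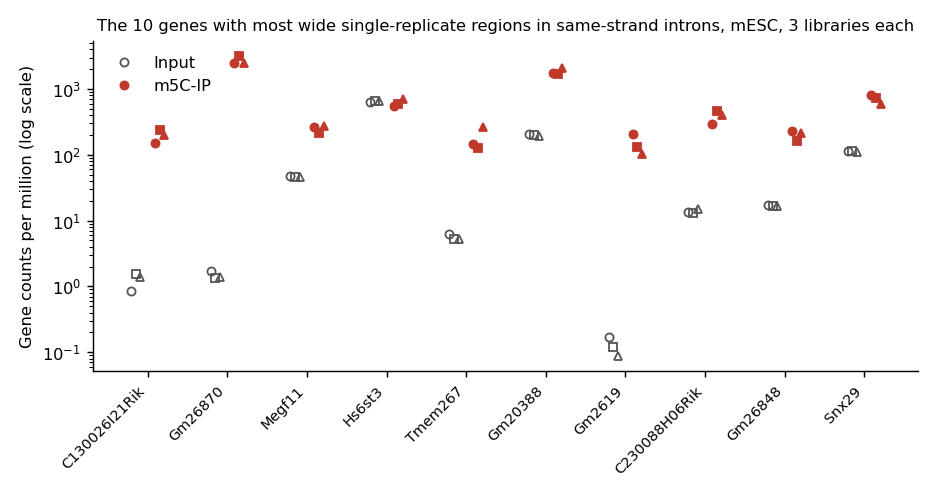
The x axis gives the 10 genes that held most wide single-replicate regions on the recorded strand, and the y axis their level in CPM in mESC on a log scale, with open points for 3 Input libraries, filled points for 3 m5C-IP libraries, and circle, square and triangle for replicates 1, 2 and 3. For 9 of the 10 genes all IP points lie above all Input points, and for Hs6st3 they overlap.

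The genes of the fixed lists are given by their counts. Among all 22028 protein-coding genes, 625 were hosts on the recorded strand, so a short list can hold none and nothing is read from it. Of 19 genes of the RNA m5C pathway (writers, TET oxidases and readers), 0 held a region on the recorded strand, and Tet3 held 1 of 151 bp on the other. None of 15 nuclear long non-coding RNA genes held one. Of the 12 mESC markers, Tfcp2l1, a transcription factor of naive pluripotency, held a region on each strand: chr1:118665305-118665497 on the plus strand in replicate 2, with 8.81% C and 35.2% G, and chr1:118628294-118628444 on the minus strand in replicate 3. Of the 12 markers of differentiated cells, Gata6, a transcription factor of primitive endoderm, held 1 region on the other strand. None of the 10 feeder markers did.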

How the data were processed

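caRNA of mESC and K562 was sequenced as m5C-IP and Input, 3 libraries each, and groups came from the library titles. The antibody label is none for mESC IP and m5C for K562 Input, which goes against those titles. The authors trimmed reads with Trimmomatic 0.39, aligned them with HISAT2 2.1.0 to mm10 or hg38, removed duplicates with Picard, used SAMtools 1.16.1, and called peaks per library and strand with MACS2 at an extension of 150 bp. The deposited peak lists hold positions and strand, with a placeholder score that was not used. The deposited counts are raw reads per gene. The paper names HTSeq for gene counts of its RNA-seq, but no counting tool or strand setting for the m5C-IP libraries. Lines that name no gene stayed out of library sizes (no feature: 59.5 to 59.9% of mESC IP records). Whether Input served as control for peak calling is not given either.

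Peaks were merged at 1 bp or more and annotated with GENCODE M21 on GRCm38, a later release than the study names. Sequence came from the same build; the 19 regions on scaffolds have none. K562 symbols came from GENCODE 44. IP was compared with Input in edgeR 4.0.16 under R 4.3.3 (quasi-likelihood test, TMM, filterByExpr, Benjamini-Hochberg over all genes at 0.05), with DESeq2 1.42.0 as an alternative. Features were compared over replicates by exact permutation tests that did not pair the values by replicate (scipy 1.17.1). On simulated counts the edgeR fit recovered 84% of genes changed by a log2 of 2 over 20244 mESC genes and 71% over 14522 K562 genes. For genes changed by a log2 of 1 it recovered 39% and 36%. Intervals between libraries cover these libraries only, and the IP depth limits low genes.

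Regions named are the 3 widest of each replicate, those with the highest C and, at 200 bp or more, the lowest C, and the nearest to a region of 3 replicates; genes are the 10 with most regions, the genes of named regions and fixed lists. One region that this rule names is not reported here. Members, lists and tests were chosen with earlier results of these data known. Tandem repeats, purine runs, sequence past the 3′ end, genome copies, shared runs and opposite-strand overlap were added after seeing the data.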

Additional observations from a re-analysis of the deposited data

How the results depend on the processing

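Of 197 alternative values, 149 stayed within the replicate SD or within 1.5 times a count, and 48 moved. The cause of each move was not tested unless given here. A width over 200 bp left 888 regions, with 50.8% outside genes, 55.2% GC, 61.7% soft-masked bases, 22.6% tandem repeats and 5.63% within 10 kb of a region of 3 replicates. Counting any exonic base gave 53.8% outside genes and 60.9% masked. Ignoring strand gave 58.7% masked and 5.02% near, merging peaks up to 150 bp apart 59.03% masked, and leaving out the dense windows 60.9% masked and 2.85% near. The share near was 1.69% within 1 kb, 10.6% within 100 kb, 9.43% for regions of 2 or more replicates and 6.53% on either strand. Windows 1 kb away held 44.5% GC and, as alternatives chosen after seeing the data, 38.7% masked and 0.752% tandem; tandem thresholds of 0.7 and 0.9 gave 16.8% and 6.31%. With library size alone, 62 mESC and 73 K562 host genes were lower in IP. Leaving out 1 library gave 441 to 467 mESC hosts higher and 70 to 166 lower, and 27 to 127 K562 hosts higher and 31 to 122 lower. The low ends came from leaving out any 1 Input library, which raised the filter on low counts and left 644 of 711 and 177 of 408 hosts tested; with the genes of the full fit kept, an alternative chosen after seeing the data, they were 138 to 142 lower in mESC, and 119 to 120 higher and 124 to 128 lower in K562. Leaving out 1 replicate of peaks gave 2838 to 3329 regions, 52.1 to 53.1% outside genes, 51.2 to 51.8% GC, 59.3 to 59.5% masked, 11.1 to 11.6% tandem and 3.65 to 4.23% near. With the replicate number as a block, 446 mESC hosts were higher and 153 lower, and 115 and 120 in K562. Deviations of same-numbered IP and Input libraries correlated at 0.0191 to 0.0279 in mESC and -0.00658 to 0.0218 in K562. The other mESC pairs ran from -0.0239 to -0.00156, and whether same-numbered libraries form pairs was not settled. Each mESC IP library correlated best with the Input of its own number, K562 IP replicate 1 with Input replicate 2.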
